A study of Mus musculus with 2 samples.

Results

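The collagen genes of the embryonic mouse hindbrain are described here, member by member. Members were the protein-coding genes of the GENCODE mm10 annotation whose whole name is Col, a number, a, and a number, that is the genes of the collagen alpha chains. The rule found 44 genes among the 21474 protein-coding genes in the tables. Col4a3bp, which encodes a ceramide transport protein, only starts with a collagen name and was not a member. By the chains they encode, 11 members were placed in the fibrillar class, 8 in the basement membrane class (types IV, XV and XVIII) and 25 in a class of all others.

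Total RNA over 200 nucleotides was sequenced from hindbrains of B6NCrl mouse embryos at 10.5 days, both sexes pooled. The 1 group had 2 biological replicates, a pool of 69 embryos (replicate 1) and a pool of 51 embryos (replicate 2), to which the labels give 1 and the same donor ID. The input per library was 10 ng of RNA plus spike-ins, which are synthetic RNAs added in known amount. With 1 group and 2 pools there was no contrast between conditions, no test was made, and an SD (n = 2) says how far these pools lay apart.

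Expected counts summed to 38170090 (replicate 1) and 36382245 (replicate 2) over annotated genes. All 6 hindbrain markers (Hoxa2, Hoxb2, Hoxb1, Irx2, Irx3 and Gbx2) were detected in both pools, with summed levels of 210.8 and 161.1 TPM. Values given as a pair are replicate 1 first, then replicate 2. TPM is the abundance of a transcript per length, scaled to a fixed total per library. All 8 markers of mesenchyme and meninges (summed 118.5 and 110.7 TPM) and all 6 endothelial markers (137.4 and 162.4 TPM) were detected too. Detection here means a TPM of at least 1 in both pools, which 58.8% of all protein-coding genes reached. In bulk tissue, fewer cells of a type and less RNA per cell cannot be told apart.

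Collagens are proteins of alpha chains wound into a triple helix, most of them secreted. Fibrillar collagens assemble end to end and side by side into the fibres of connective tissue and cartilage. Type IV collagen forms the network of basement membranes, the sheets on which epithelia, endothelium and the neural tube rest. The FACITs (fibril-associated collagens with interrupted triple helices) sit on fibre surfaces, and type VI forms beaded filaments around cells. In the embryonic brain, collagens are best known from the pial basement membrane, the blood vessels and the mesenchyme that becomes the meninges.

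Several collagen genes make more than 1 protein, and the sequences at which 3 of the abundant members differ are shown first because the transcripts described further on turn on them. Exon 2 of Col2a1 (chr15:98000403-98000606, minus strand, mm10) encodes the cysteine-rich domain of the type IIA procollagen and is skipped in type IIB. It has 204 bases, equal to 68 codons, and capitals mark its 10 cysteine codons (TGT or TGC in frame).

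Col2a1 exon 2: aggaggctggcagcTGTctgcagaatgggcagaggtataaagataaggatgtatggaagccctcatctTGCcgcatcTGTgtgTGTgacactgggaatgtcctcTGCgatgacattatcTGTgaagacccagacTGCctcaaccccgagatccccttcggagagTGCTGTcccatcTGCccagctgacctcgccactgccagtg

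Col9a1 has an upstream start, used for the long alpha chain of cartilage, and a start inside the gene, used for a shorter chain known from the eye. Col18a1 has an upstream start, used for the short chain of vascular and epithelial basement membranes, and a downstream start for longer chains. The windows below cover bases 250 to 19 before the RefSeq start sites (GRCm38.p6, sense strand of the gene). For Col9a1 they lie at chr1:24177360-24177591 and chr1:24194953-24195184, both on the plus strand, the second inside an intron of the long form. The Col18a1 window lies at chr10:77166549-77166780 on the minus strand.

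Col9a1 upstream start: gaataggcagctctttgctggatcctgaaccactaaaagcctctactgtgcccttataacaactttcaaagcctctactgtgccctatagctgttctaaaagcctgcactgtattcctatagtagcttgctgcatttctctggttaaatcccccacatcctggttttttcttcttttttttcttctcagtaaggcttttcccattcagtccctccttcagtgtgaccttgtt

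Col9a1 downstream start: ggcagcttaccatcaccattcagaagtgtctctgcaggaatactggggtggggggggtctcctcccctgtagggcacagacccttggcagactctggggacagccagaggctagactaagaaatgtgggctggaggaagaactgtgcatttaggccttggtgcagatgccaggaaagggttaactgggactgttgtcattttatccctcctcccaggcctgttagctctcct

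Col18a1 upstream start: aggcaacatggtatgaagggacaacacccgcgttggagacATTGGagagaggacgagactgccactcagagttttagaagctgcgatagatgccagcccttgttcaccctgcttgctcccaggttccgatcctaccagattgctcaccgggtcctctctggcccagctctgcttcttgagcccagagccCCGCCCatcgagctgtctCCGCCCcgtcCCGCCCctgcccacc

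Capitals mark matches of 4 motifs searched on both strands: TATAAA for the TATA box, CCAAT for the CCAAT box, GGGCGG for the GC box and ACAAAG as the core letters known for Sox factors. Col18a1 had 1 match of the CCAAT box and 3 of the GC box, all on the strand opposite to the gene, and neither Col9a1 window had a match of any of the 4. Among 32851 RefSeq promoter windows of the same 232 bases, 32.4% held the CCAAT box, 30.1% the GC box, 15.5% the Sox letters and 11.9% the TATA box. The GC content was 43.1% and 55.2% in the upstream and downstream Col9a1 windows and 60.8% in the Col18a1 window. A match is only a match of letters.

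The collagens of the hindbrain were dominated by a few fibrillar and basement membrane chains. Of the 44 members, 28 (63.6%) were detected, meaning a TPM of at least 1 in both pools, beside 58.8% of all protein-coding genes. A further 4 reached 1 TPM in 1 pool (Col5a3, Col7a1, Col8a1 and Col11a2), and 12 did in neither. The 44 genes together held 1230 and 1198 TPM, which was 0.155% and 0.143% of the TPM of protein-coding genes. Their 5 highest members made up 68.6% and 67.4% of the collagen total.

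The fibrillar class held most of the collagen RNA per length, with 783.4 and 730.3 summed TPM (63.7% and 61.0% of the collagen total). The basement membrane class followed with 256.6 and 281.3 TPM (20.9% and 23.5%), and the other collagens had 189.8 and 186.4 TPM (15.4% and 15.6%) although they were the class with most genes. Detected members numbered 8 of 11 in the fibrillar class, 6 of 8 in the basement membrane class and 14 of 25 in the rest. The median member had 20.6 and 17.9 TPM in the fibrillar class, 7.67 and 8.95 TPM in the basement membrane class and 2.71 and 2.94 TPM in the other class. The median detected protein-coding gene had a mean of 19.7 TPM.

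On the scale of mean log2(TPM + 0.1), fibrillar members were 1.18 ± 0.15 (SD, n = 2) above basement membrane members, a ratio of 2.27 between geometric means. They stood 2.82 ± 0.233 above the other collagens, and basement membrane members 1.64 ± 0.083 above the others. The order of the classes was the same in both pools, and each difference was larger than its spread between pools. That spread does not cover the spread of members within a class. Members ranged from 0.31 to 312.7 TPM in the fibrillar class, from 0.04 to 136.07 in the basement membrane class and from 0.02 to 60.29 in the other class. The size of each difference depended on how the classes were drawn. With type IV alone as the basement membrane class the differences were 1.83 from the fibrillar and 0.99 from the other class. With only the transcript of longest coding sequence for each gene the fibrillar lead over the basement membrane class was 1.93. For Col18a1 that transcript is Col18a1-201 (0.09 and 0.2 TPM), while Col18a1-202 had 114.41 and 135.26 TPM. The value of 1.93 thus leaves out nearly all RNA of the highest basement membrane member.

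**Figure D1:**
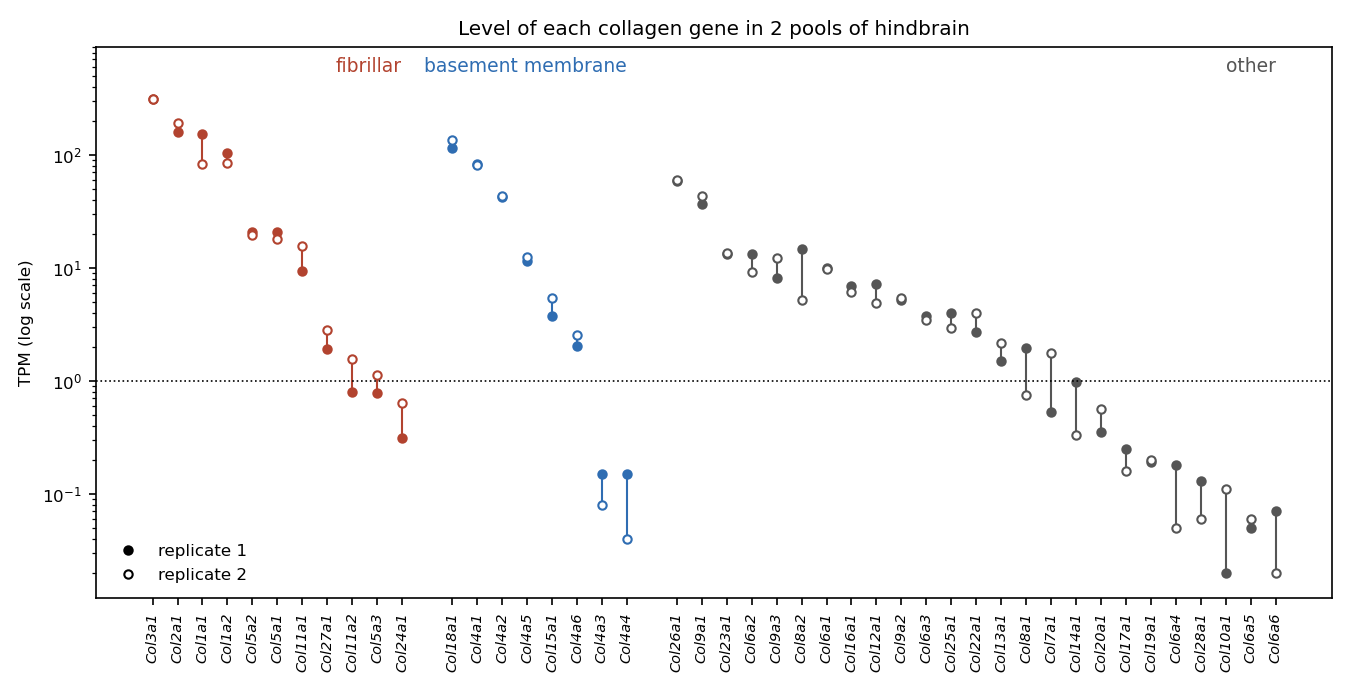
Each collagen gene is drawn by class, with its TPM in replicate 1 (filled) and replicate 2 (open) on a log axis; the dotted line is 1 TPM, the level for detection. Every class spans from well above 10 TPM to below 1 TPM in both pools, and Col3a1 is the highest member at 311.11 and 312.7 TPM.

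Among the fibrillar genes, the chains of types I, II and III were the highest. Col3a1 (chr1:45311538-45349706), whose product forms thin, compliant fibres in embryonic connective tissue and vessel walls, had 311.11 and 312.7 TPM. Of the detected protein-coding genes, 96.58% had a lower mean TPM. Col2a1 (chr15:97975602-98004695), the main fibrillar collagen of cartilage and also a product of embryonic neuroepithelium and notochord, had 158.54 and 190.9 TPM.

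Type I collagen, the main fibre of skin, bone and meninges, is built from Col1a1 and Col1a2. Col1a1 (chr11:94936224-94953042) had 154.3 and 82.84 TPM, the widest gap among the 5 highest members. Col1a2 (chr6:4504814-4541544) had 104.67 and 84.74 TPM. Because of that gap, Col1a1 ranked above Col18a1 in replicate 1 and below it in replicate 2.

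The chains that nucleate and limit the width of fibres were lower. Col5a2 had 20.89 and 19.45 TPM, and Col5a1 had 20.63 and 17.95 TPM. These type V chains form mixed fibres with type I. Col11a1, the type XI chain that does the same in cartilage fibres, had 9.41 and 15.62 TPM, and Col27a1, a chain of cartilage matrix, had 1.92 and 2.79 TPM. The full-length Col27a1-201 had only 0.75 and 0.87 TPM, so detection of this gene rested on its shorter forms too. Only in replicate 2 did Col11a2 (0.80 and 1.54 TPM) and Col5a3 (0.78 and 1.13 TPM) reach 1 TPM. For Col11a2 this included 0.26 and 0.62 TPM of Col11a2-207, a retained intron form with 5.13 and 11.05 expected counts. The full-length Col11a2-201 had 0.55 and 0.81 TPM. Col24a1 had 0.31 and 0.63 TPM and was the fibrillar member below the limit in both pools.

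The 6 cartilage markers were divided, with 3 detected and 3 near 0, and summed to 127.9 and 102.2 TPM. Sox9, a transcription factor of cartilage that neural progenitors also express, made up most of that sum with 110.69 and 77.24 TPM, and Hapln1, a link protein of cartilage and brain matrix, had 15.03 and 21.58 TPM. Matn3, a matrilin of cartilage, had 2.02 and 3.09 TPM. Acan, the large proteoglycan of cartilage, had 0.07 and 0.06 TPM, Matn1 had 0.02 and 0.15 TPM, and Comp had 0.08 and 0.12 TPM. The notochord marker Noto had no count in either pool, and T had 0.98 and 0.45 TPM.

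The basement membrane class was led by a multiplexin and by the ubiquitous type IV pair. Col18a1 (chr10:77052178-77166548), whose product carries heparan sulphate and the endostatin fragment, had 114.62 and 136.07 TPM. Col4a1 (chr8:11198423-11312826) had 82.03 and 81.63 TPM, and Col4a2 (chr8:11312805-11449287) had 42.26 and 43.10 TPM. Both type IV chains form the trimer found in nearly all basement membranes, and their levels differed between the pools by less than 1 TPM.

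The remaining basement membrane members were lower. Col4a5 had 11.58 and 12.45 TPM and Col4a6 had 2.02 and 2.53 TPM. These X-linked chains join in the trimer of some epithelial and smooth muscle basement membranes. Col15a1, the other multiplexin, had 3.75 and 5.44 TPM. Col4a3 (0.15 and 0.08 TPM) and Col4a4 (0.15 and 0.04 TPM), whose chains join Col4a5 in mature kidney and other adult basement membranes, rested on 10 to 40 counts per library.

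In the class of all other collagens, Col26a1 and Col9a1 stood above the rest. Col26a1 (chr5:136741759-136883209), a short collagen first described in testis and ovary, had 58.1 and 60.29 TPM. Col9a1 (chr1:24177610-24252684), a FACIT chain on type II fibres, had 36.32 and 43.39 TPM. Both were above the median detected protein-coding gene in both pools.

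Cartilage type IX is built from different chains, and the partners of Col9a1 were lower. Col9a3 had 8.18 and 12.19 TPM, and Col9a2 had 5.23 and 5.44 TPM. Among the other FACITs, Col16a1 had 6.95 and 6.04 TPM, Col12a1, a chain of dense connective tissue, had 7.14 and 4.88 TPM, and Col22a1, known from tissue junctions, had 2.71 and 3.94 TPM. Col14a1, a partner of type I fibres, stayed just under the limit in replicate 1 (0.97 TPM) and had 0.33 TPM in replicate 2.

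The type VI genes of the classic trimer were all detected, and their later relatives were not. Col6a2 had 13.2 and 9.23 TPM, Col6a1 had 10.03 and 9.66 TPM and Col6a3 had 3.75 and 3.44 TPM. Col6a4, Col6a5 and Col6a6, which can replace the Col6a3 chain in adult tissues, each stayed at or below 0.18 TPM.

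Of the transmembrane collagens, which are anchored in the cell surface and can be shed, 3 of 4 were detected. Col23a1 had 13.28 and 13.55 TPM. Col25a1, whose product is needed by motor axons to innervate muscle and binds amyloid, had 3.99 and 2.94 TPM. Col13a1, a chain of the neuromuscular junction, had 1.49 and 2.14 TPM, and Col17a1, of the skin hemidesmosome, had 0.25 and 0.16 TPM.

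The short chain collagens of type VIII form hexagonal lattices under endothelium and in the eye. Col8a2 had 14.75 and 5.18 TPM, and its partner Col8a1 had 1.94 and 0.75 TPM. Both were higher in replicate 1. Col10a1, the marker of hypertrophic cartilage, rested on 2 and 8 counts. Col7a1, the anchoring fibril of skin, had 0.53 and 1.75 TPM from 60 and 119 counts. Of its TPM in replicate 2, 1.06 came from Col7a1-207, a 245-base retained intron form with 3.74 expected counts, and without retained intron forms the gene had 0.20 and 0.49 TPM.

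The 12 members below 1 TPM in both pools ranged from 0.02 to 0.97 TPM and from 2 to 116 counts per library, so each had at least some reads. They were Col24a1, Col4a3, Col4a4 and 9 of the other class. The lowest detected member was Col13a1 (1.49 and 2.14 TPM), and the members that crossed 1 TPM between the pools are named above.

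Chains that share a trimer were far from equal in RNA in some types and close to equal in others. The ratio of Col4a1 to Col4a2 in TPM was 1.94 in replicate 1 and 1.89 in replicate 2. In the protein, the common type IV trimer holds more alpha 1 than alpha 2 chains. Col5a1 and Col5a2 were nearly equal, with ratios of 0.988 and 0.923. Without length correction, the count ratio of this pair was 1.22 and 1.17, so which of these chains was higher turned on the correction.

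The type I ratio was the one that differed most between the pools among abundant pairs. Col1a1 over Col1a2 was 1.47 in replicate 1 and 0.978 in replicate 2, so Col1a1 was the higher chain in replicate 1 only. On counts the ratio was 1.69 and 1.12, and with only the longest coding transcripts 1.55 and 1.03, so which chain was higher in replicate 2 turned on the length correction and the transcripts summed. The type I trimer also holds more alpha 1 than alpha 2 chains. Col6a1 over Col6a2 likewise fell on both sides of equality, at 0.76 and 1.05, while Col6a3 over Col6a1 was 0.374 and 0.356. That last ratio counts short Col6a3 fragments, and with the full-length forms Col6a3-201 and Col6a3-202 alone it was 0.181 and 0.116.

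In types IX, XI and VIII 1 chain was in large excess in both pools. Col9a1 exceeded Col9a2 by a factor of 6.94 and 7.98, and Col9a3 exceeded Col9a2 by 1.56 and 2.24. On counts Col9a3 over Col9a2 was lower, at 1.19 and 2.0. Col11a1 exceeded Col11a2 by 11.8 and 10.1 on TPM and by 18.2 and 18.6 on counts. Col8a1 was 0.132 and 0.145 of Col8a2. The chain excess of type VIII was therefore near the same in both pools, although both chains differed between the pools by more than 2-fold.

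The type IV genes lie as head-to-head pairs, and each pair was at a different level. The annotated starts of Col4a1 and Col4a2 overlap by 22 bases (chr8:11312805-11312826), those of Col4a4 and Col4a3 are 71 bases apart and those of Col4a6 and Col4a5 are 1308 bases apart. Col4a5 over Col4a6 was 5.73 in replicate 1 and 4.92 in replicate 2, against 1.94 and 1.89 for Col4a1 over Col4a2. With only the longest coding transcript of each gene, Col4a5 over Col4a6 was 3.42 and 2.75. Col4a3 over Col4a4 was 1.00 and 2.00, from too few counts to read.

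**Figure D2:**
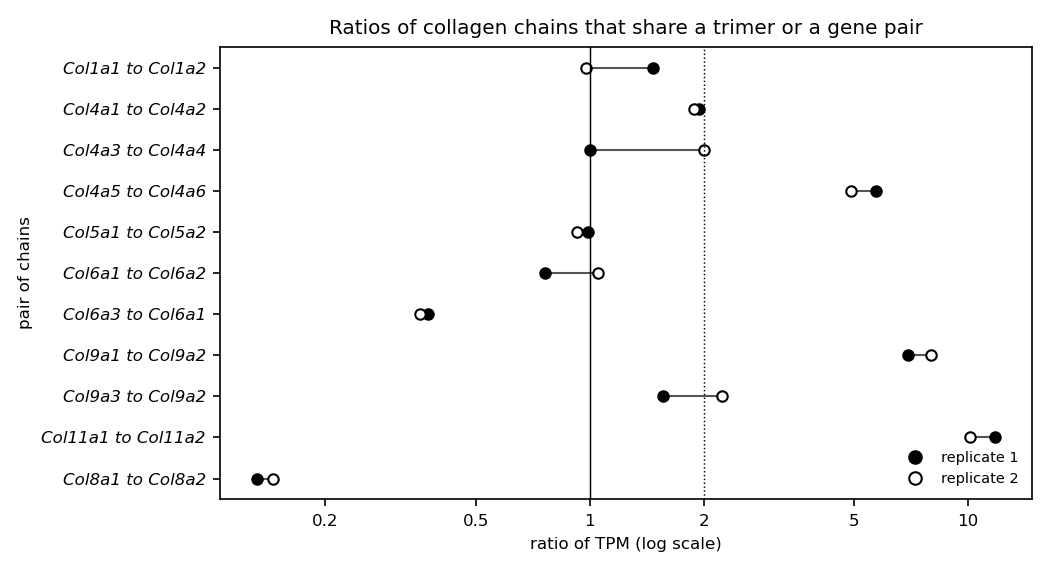
Points give the ratio of TPM of the first to the second chain on a log axis, in replicate 1 (filled) and replicate 2 (open); the solid line is equality and the dotted line a ratio of 2. Col4a1 to Col4a2 lies just under 2 in both pools (1.94 and 1.89), while Col1a1 to Col1a2 moves from 1.47 to 0.978.

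Most Col2a1 RNA carried exon 2, nearly all Col9a1 RNA was the short form, and nearly all Col18a1 RNA began at the upstream start. Col2a1-201, which includes exon 2, had 97.12 and 107.26 TPM, or 61.26% and 56.19% of the gene. Col2a1-202, which skips exon 2, had 42.85 and 61.81 TPM, or 27.03% and 32.38%. Of the RNA in these 2 full-length forms, 69.4% and 63.4% (66.4% ± 4.2, SD, n = 2) carried exon 2. The form with the cysteine-rich domain is known from chondroprogenitors and non-cartilage embryonic tissues, and the form without it from chondrocytes.

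Col9a1 RNA was almost wholly the short form. Col9a1-202, which begins at the start inside the gene, took 98.68% of the gene's TPM in replicate 1 and 98.55% in replicate 2. The long Col9a1-201 took 0.08% and 0.16%, from 3.29 and 6.58 expected counts. The short form has 2040 coding bases and the long form 2763, since the short chain lacks the large amino-terminal domain of the cartilage form. The window before the downstream start printed above is therefore the one that precedes nearly all Col9a1 RNA in these pools, as far as the annotation gives the starts.

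Col18a1 RNA came from the upstream start. Col18a1-202, with 3945 coding bases, took 99.81% and 99.40% of the gene's TPM. The longer chains from the downstream start, Col18a1-201 (5322 coding bases) and Col18a1-203 (4581 coding bases), had at most 0.20 TPM each. The short chain is the one that lines vascular and epithelial basement membranes.

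In some genes a short annotated fragment carried much of the TPM from few reads. For Col3a1, the full-length Col3a1-201 had 232.89 and 218.93 TPM, and the 737-base fragment Col3a1-205 had 70.54 and 84.53 TPM. That fragment received 3.40% and 4.29% of the gene's expected counts but 22.67% and 27.03% of its TPM. The full-length form alone would still make Col3a1 the highest collagen. Its TPM was lower in replicate 2, whereas the gene total was level.

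Shorter transcripts also took a large share of Col4a5, Col12a1, Col15a1, Col16a1 and Col6a3. They did so from few reads in Col6a3 and Col16a1 and from more in the others. Col4a5-202, the full-length form, took 58.86% and 55.87% of the gene and Col4a5-204, which lacks the first part of the gene, took 37.77% and 42.44%, from 24.74% and 28.64% of counts. Of Col12a1, 49.72% and 47.23% fell to the short Col12a1-204, from 18.1% and 15.93% of counts. Of Col6a3, 50.27% and 43.60% fell to a retained intron form of 646 bases, Col6a3-206, from 5.82% and 6.59% of counts. Of Col16a1, 31.03% and 33.17% fell to Col16a1-207, a noncoding form of 833 bases, from 6.87% and 8.43% of counts. The full-length Col9a3-201 took 71.03% and 73.42% of its gene. The gene TPM of these members is thus higher than that of their full-length RNA. Col15a1-203, a short 3' form, took 45.21% and 48.90% of its gene's TPM from 22.93% and 25.6% of counts, about as much as the full-length Col15a1-202 (47.87% and 44.49%).

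Col26a1 had a pair of full-length forms that differ by 6 coding bases. Col26a1-202 (1314 coding bases) took 57.55% and 50.32%, and Col26a1-201 (1320 coding bases) took 26.42% and 28.33%. Col1a1, Col4a1, Col4a2, Col6a1 and Col23a1 each had nearly all their RNA in 1 transcript.

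**Figure D3:**
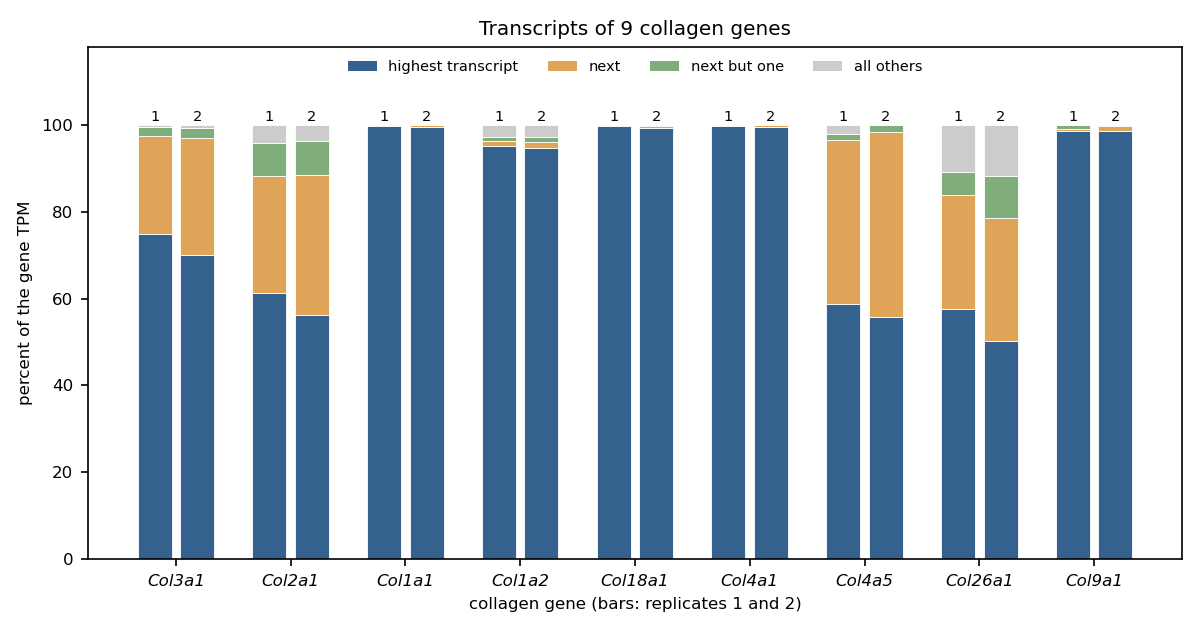
Stacked bars give the percent of each gene's TPM in its highest transcript, the next, the next but one and all others, for replicates 1 and 2. Col9a1, Col18a1, Col1a1 and Col4a1 are filled by 1 transcript, while Col2a1 (61.26% and 56.19% in the highest) and Col4a5 (58.86% and 55.87%) are divided.

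Between the pools, 30 of the 34 collagen genes with a ratio stayed within 2-fold; Col8a1, Col8a2 and Col14a1 were lower and Col7a1 higher in replicate 2. Ratios were taken as log2 of CPM (counts scaled to library size, with edgeR's TMM factors over annotated genes) in replicate 2 over replicate 1, for the 34 members with a CPM of at least 1 in both pools. Of these, 14 were above 0 and 20 below. At least 2-fold higher in replicate 2 was 1 member, beside 0.775% of protein-coding genes, and at least 2-fold lower were 3 members, beside 3.72%. The median ratio over protein-coding genes was -0.004 with an SD of 0.45 across genes.

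Scaled on the spike-ins instead, the median of all protein-coding genes moved to 0.81, so each direction given here is relative to the bulk of genes. On that scale Col1a1, Col8a1, Col8a2 and Col14a1 were still below 0 among the 34 members, and the other members given here as lower in replicate 2 were above 0. TPM ratios also differ from CPM ratios. The smaller spike-in share of replicate 2 by itself raises its TPM by 0.08 (log2), but for some members the gap was wider. Col6a3 had 3.75 and 3.44 TPM at a log2 CPM ratio of -0.58, and Col24a1 had 0.31 and 0.63 TPM at 0.22. The source of these wider gaps was not tested.

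Of the 34, Col8a2 had the lowest ratio. It had 1666 counts in replicate 1 and 531 in replicate 2, a log2 ratio of -1.57 (95% counting interval -1.72 to -1.43), and 0.97% of protein-coding genes had a lower ratio. Its partner Col8a1 had 262 and 91 counts and a log2 ratio of -1.43 (-1.81 to -1.10). Col14a1 had 116 and 38 counts and a log2 ratio of -1.48 (-2.10 to -0.99). These intervals cover counting error only.

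Col1a1 fell just short of a 2-fold difference. Its 24291 counts in replicate 1 and 11647 in replicate 2 gave a log2 ratio of -0.98 (-1.01 to -0.95), and 3.90% of protein-coding genes had a lower one. Col1a2 had 14374 and 10417 counts and a log2 ratio of -0.39, and Col3a1 had 35730 and 30436 counts and a log2 ratio of -0.15. The type I and III chains were thus all lower in replicate 2 relative to the bulk of genes, by different amounts, and on spike-in scaling only Col1a1 was (-0.16, against 0.43 for Col1a2 and 0.67 for Col3a1).

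In the other direction, Col7a1 was 2.06-fold higher in replicate 2 (log2 ratio 1.04, interval 0.61 to 1.54) from few counts. Col18a1, the most abundant basement membrane member, had 15368 and 16332 counts (log2 ratio 0.17). Among chains of types II, IX and XI, Col2a1 had 18920 and 20426 counts (log2 ratio 0.19), Col11a1 had 1692 and 2499 (0.64) and Col9a3 had 475.94 and 650.97 expected counts (0.53). Of the protein-coding genes, 2.90% had a higher ratio than Col11a1.

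Grouped by type after these ratios had been seen, types II, IX and XI had 5 of 6 genes higher in replicate 2 and Col9a2 lower (median log2 ratio 0.36). Types I, III, V, VI, XII, XIV and XVI had 11 of 12 genes lower and Col5a3 higher (median -0.44). These directions are on CPM, and on TPM both Col9a2 (5.23 and 5.44) and Col3a1 (311.11 and 312.7) were slightly higher in replicate 2. On spike-in scaling the medians of these groups were 1.18 and 0.38, against 0.81 for all genes. The groups were formed from the values, so the counts describe these pools and support nothing further.

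By class, the median ratio was 0.19 for fibrillar, 0.07 for basement membrane and -0.21 for other collagens. The fibrillar median was -0.21 when members had to average 5 TPM or more, since the 4 fibrillar genes below that level all had ratios above 0, and the basement membrane median was then -0.03. The 6 basement membrane members with a CPM of at least 1 in both pools ranged from -0.09 for Col4a1 to 0.41 for Col15a1; Col4a3 and Col4a4, below that filter, had -0.85 and -1.74 from few counts. Other collagens ran from -1.57 to 1.04 and fibrillar members from -0.98 to 0.64.

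**Figure D4:**
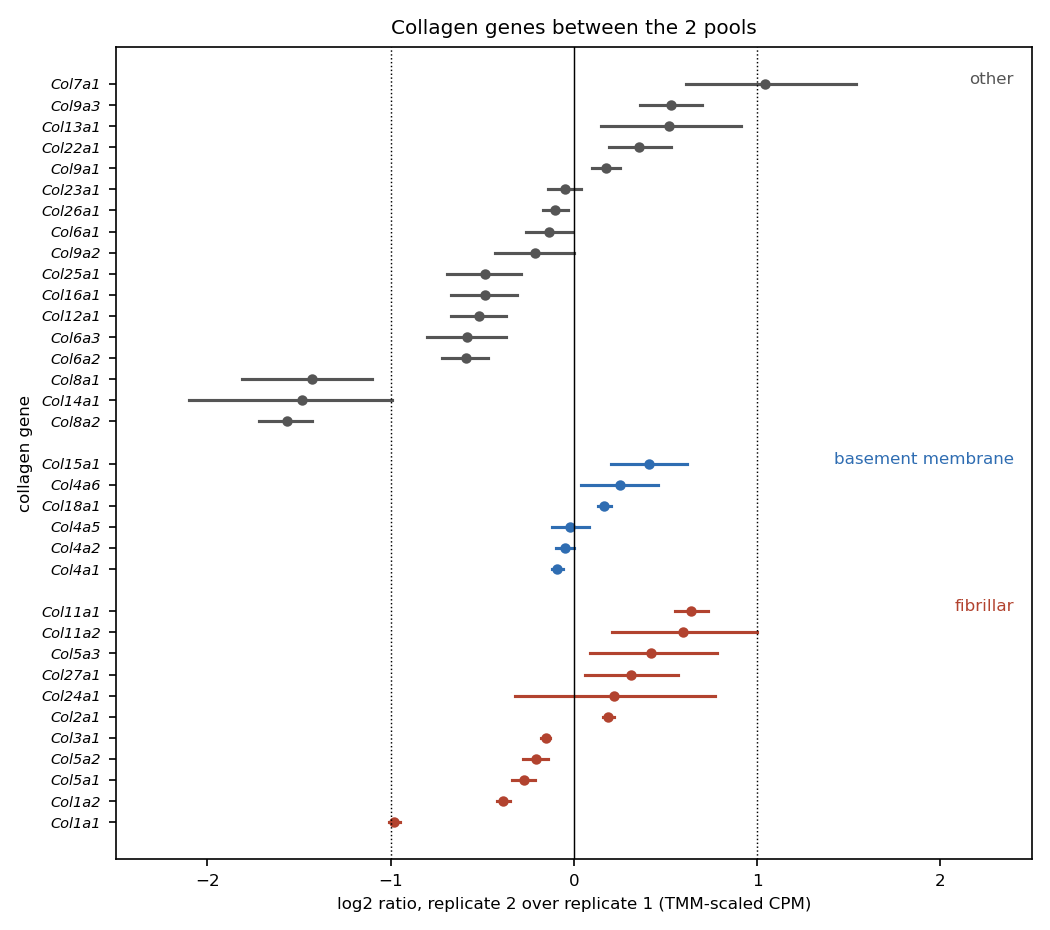
Each point is the log2 ratio of a collagen gene in replicate 2 over replicate 1 (TMM-scaled CPM), and each bar its 95% counting interval; dotted lines mark 2-fold. The 6 basement membrane genes lie between -0.09 and 0.41, while Col8a2, Col8a1 and Col14a1 lie beyond the line for 2-fold lower.

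Cell type markers moved between the pools as well, and their part in these differences was not tested. The mesenchyme and meninges list summed to 118.5 and 110.7 TPM, with 6 of 8 ratios below 0 and a median of -0.18. Of the 4 pericyte markers 1 was detected (Pdgfrb), and the list summed to 27.76 and 24.13 TPM, most of it Pdgfrb (23.41 and 22.18 TPM). All 3 pericyte markers with a ratio were below 0, with a median of -0.16 and Rgs5 lowest at -1.25 (96 and 37 counts). Kcnj8, below the CPM filter, had 127 and 33 counts. The endothelial list had 3 of 6 ratios below 0 and a median of 0.03.

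The 6 neuroepithelial markers summed to 2226 and 1856 TPM with 5 ratios below 0 and a median of -0.18, as in the mesenchyme list. Larger shifts were seen in some other lists. The 5 neuronal markers summed to 1437 and 912.8 TPM with all 5 below 0 and a median of -0.87. The 3 choroid plexus markers summed to 273.9 and 45.49 TPM, most of it Ttr (249.76 and 35.26 TPM), with a median of -2.90. The 3 macrophage markers summed to 45.53 and 30.93 TPM. Of the 5 surface ectoderm markers 4 were detected, with sums of 78.19 and 105.3 TPM. Most of these sums was Krt8 (37.54 and 51.05 TPM) and Krt18 (31.65 and 46.33 TPM). Trp63 was also higher in replicate 2 (5.70 and 6.48 TPM). In contrast, Krt5 (1.77 and 0.14 TPM) and Krt14 (1.53 and 1.27 TPM) were lower, so this list was divided in direction. The 3 cartilage markers with a ratio were Sox9 at -0.60, Hapln1 at 0.44 and Matn3 at 0.53, so they differed in direction.

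Of the genes that make and handle collagen, 54 of the 68 with a row were detected, beside 58.8% of all protein-coding genes, and among receptors the share was close to that background. Of the 15 genes for chain hydroxylation and glycosylation, steps that stabilise the helix and prepare cross-links, 14 were detected. P4hb, a subunit of prolyl 4-hydroxylase, was the highest with 419.91 and 485.26 TPM, and Ppib, which speeds helix folding, had 368.99 and 403.88 TPM. The exception was P4ha3, with 2.28 and 0.88 TPM, and Colgalt2 had the lowest mean (1.39 and 1.54 TPM). Of the alternative catalytic subunits P4ha1 had 29.71 and 44.71 TPM and P4ha2 had 18.16 and 21.07 TPM.

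Among folding and export genes, 7 of 8 were detected, and a further listed gene, Ctage5, was not matched by symbol. Serpinh1, the collagen-specific chaperone HSP47, was the highest gene of all pathway lists with 639.61 and 779.07 TPM. Mia3, which loads procollagen into transport carriers, had 59.67 and 71.34 TPM. Creb3l1, a transcription factor for collagen secretion in bone, was the lowest with 1.49 and 0.84 TPM.

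Of 14 processing and crosslinking genes 10 were detected. Pcolce, the enhancer of the propeptide-cutting enzyme, had 73.77 and 60.27 TPM, and Pxdn, which forms the sulfilimine cross-link of type IV collagen, had 50.84 and 58.53 TPM. Bmp1, the enzyme that removes the carboxy-terminal propeptide of fibrillar chains, had 24.66 and 19.07 TPM. Of the lysyl oxidases Loxl2 was the highest (18.73 and 25.6 TPM), Lox itself had 3.71 and 4.06 TPM and Loxl4 had the lowest mean of the list (0.14 and 0.32 TPM).

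Of the 8 fibril partners 7 were detected, with Sparc, a collagen-binding protein, the highest (379.63 and 353.59 TPM). The partner not detected was Tnxb, at 0.01 and 0.02 TPM. Fmod, a small proteoglycan that binds type I fibres, had 7.83 and 3.02 TPM and was the partner at least 2-fold lower in replicate 2 (log2 ratio -1.45, spike-in scaling -0.63). With 6 of 7 ratios below 0 this list had a median of -0.31. Of 11 breakdown genes 9 were detected, with Mmp14, a collagenase of the cell surface, the highest (58.66 and 60.27 TPM). The lowest gene of that list was Mmp13, with 1 count in replicate 1 and 0 in replicate 2.

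Of 12 receptors 7 were detected. Ddr1, a collagen-binding tyrosine kinase of epithelia, had the highest mean (146 and 112.04 TPM), and Ddr2, its mesenchymal relative that binds fibrillar collagen, had 23.83 and 25.12 TPM. Itgb1, the shared beta chain of collagen-binding integrins, had 87.79 and 115.01 TPM, against 2.75 and 2.10 TPM for Itga1 and 2.42 and 1.91 TPM for Itga11. Adgrg1, the receptor for type III collagen at the pial surface, had 110.73 and 65.43 TPM. The platelet receptor Gp6 had the lowest mean (0.11 and 0.35 TPM).

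Across all 6 pathway lists, 59 genes had a ratio between the pools, and 2 of them (P4ha3 and Fmod) were at least 2-fold lower in replicate 2 and none at least 2-fold higher. The background shares of such genes were those given above.

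**Figure D5:**
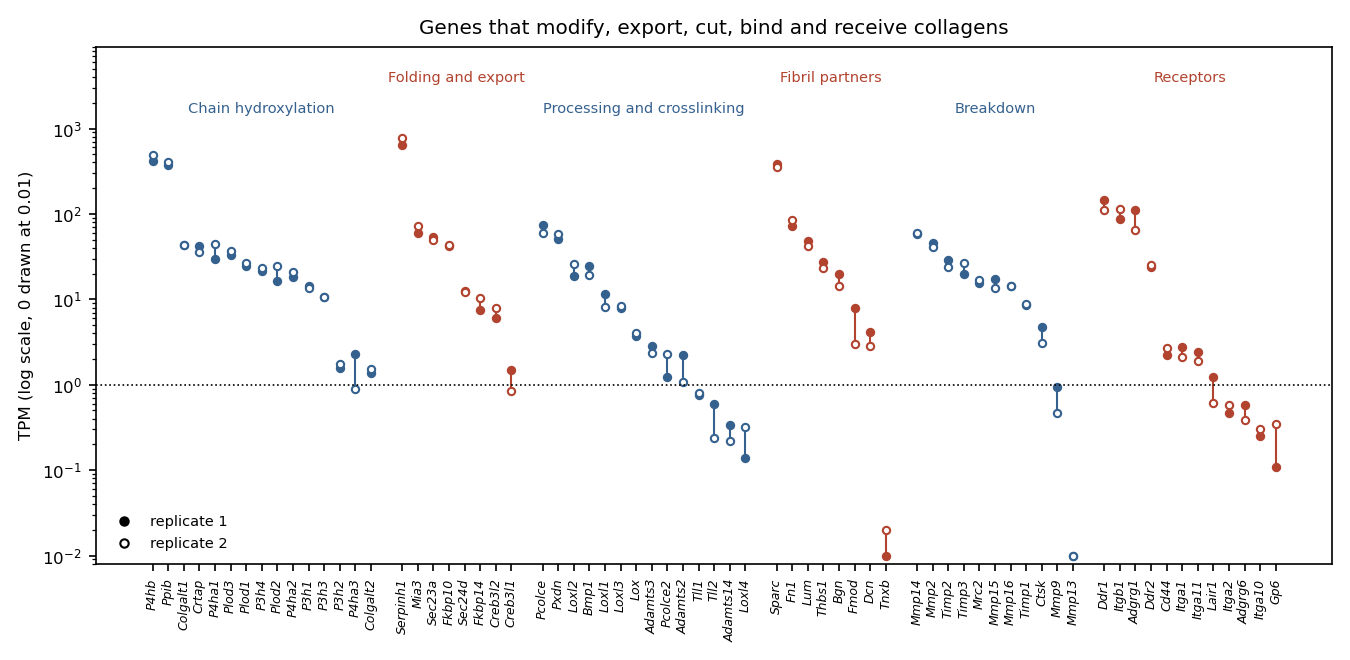
Genes of the 6 collagen pathway lists are drawn with their TPM in replicate 1 (filled) and replicate 2 (open) on a log axis, with 0 drawn at 0.01; the dotted line is 1 TPM. Serpinh1 is the highest at 639.61 and 779.07 TPM, and Mmp13 and Tnxb lie at the bottom.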

How the data were processed

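The analysis began from 1 gene-level and 1 transcript-level file per library. Their deposited columns are, per the file headers, an expected count (an estimated count that divides reads fitting several genes), TPM, FPKM and posterior mean TPM. Which aligner and quantification program were run, and whether libraries were stranded, is not given in the sources used here. Effective length equalled length minus 99 bases, so short transcripts get high TPM from few counts.

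Gene symbols and coordinates came from GENCODE M21 on mm10 (42462 of 43346 annotated genes, 98.0%). Of the 201 transcripts of members, 198 matched and 187 of those had the same length. Some members overlap other genes on the opposite strand, where reads may not have been separable. Among these overlaps were 22 exonic bases for Col4a1 and Col4a2, 234 for Col9a3 and Tcfl5 and 563 for Col4a3 and C430014B12Rik. C430014B12Rik had 14.32 and 8.95 expected counts, beside 33.77 and 16.52 for Col4a3.

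Expected counts were rounded for TMM scaling in edgeR 4.0.16 (R 4.3.3), without spike-ins and tRNAs, and log2 ratios used a prior count of 2. Spike-ins took 13.03% and 7.82% of TPM. Levels were compared as log2(TPM + 0.1), and a gene was detected where both libraries reached 1 TPM. The 95% counting intervals of ratios are exact binomial. Transcript shares were recomputed from TPM. RefSeq promoters were found for 35 of 44 members. The scaling was tested on simulated data. Scripts ran in Python 3.11.15 with scipy 1.17.1, pandas 2.3.3 and numpy 2.4.6, and figures were drawn with matplotlib 3.10.9.

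Every detected member is named, those at 1 TPM in 1 library are named, and others are given by counts and range, with some named after their values were seen. Of each pathway list the highest and lowest members are given, and others were chosen after their values were seen. Members and lists were chosen with earlier results of these data known.

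Alternatives were FPKM, posterior mean TPM and counts as units, another pseudocount or prior count, filters, type IV alone, scaling by spike-ins, total count or DESeq2 1.42.0, and each library left out. The longest coding transcript, the full-length Col6a3 forms, Col7a1 without retained intron forms and TPM without spike-ins were added after the data were seen.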

Additional observations from a re-analysis of the deposited data

How the results depend on the processing

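The order fibrillar, basement membrane, other held under each alternative run. With a pseudocount of 1 the differences (log2) were 0.81 for fibrillar minus basement membrane, 2.19 for fibrillar minus other and 1.38 for basement membrane minus other. With a pseudocount of 0.01 the fibrillar differences were 1.38 and 3.09. Among detected members only they were 1.03, 2.30 and 1.27. With type IV alone as basement membrane class the values were 1.83 and 0.99. The longest coding transcript, an alternative chosen after seeing the data, gave 1.93 and 3.62. For some members, Col18a1 and Col9a1 among them, it is not the transcript with most RNA. The number of members detected was 26 to 32. With 1 library left out it was 29 and 31, and the differences ranged from 1.08 to 1.29, 2.66 to 2.99 and 1.58 to 1.70. A single library always lies within the SD of 2, so this range shows only the spread.

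Spike-in scaling moved the median ratios to 1.01 (fibrillar), 0.89 (basement membrane) and 0.60 (other), beside 0.81 for all genes. For members averaging 5 TPM or more the fibrillar and basement membrane medians were -0.21 and -0.03, and with no filter the basement membrane median was -0.03. The ratios need both libraries, so none was left out. Of chain ratios recomputed from other units or transcripts, 12 moved beyond the SD and 24 did not, and of transcript shares 18 did and 13 did not. Longest coding transcripts entered this tally only for Col1a1 to Col1a2 and Col4a5 to Col4a6. In some other pairs that transcript held little of the RNA, and Col9a1 to Col9a2 would be 0.00574 and 0.0154. No paired analysis was possible because there was 1 group. Reads are not independent molecules, and members under 1 TPM rest on few counts.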
